A study of Homo sapiens with 16 samples.

Results

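Doxorubicin was combined with entinostat in MDA-MB-231 cells, and 4 such arrays were set against 4 arrays with entinostat and no doxorubicin. The comparison takes 8 of the 16 arrays of the study, those whose labels name entinostat. MDA-MB-231 is an established human triple-negative breast cancer line, grown here in DMEM with serum. The groups with doxorubicin were Entinostat and Doxorubicin (2 arrays) and Entinostat and ATRA and Doxorubicin (2 arrays). The groups without it were Entinostat (2 arrays) and Entinostat and ATRA (2 arrays). All cells of this comparison therefore carried entinostat at 2.5 µM, and the doses were 0.2 µM for doxorubicin and 1 µM for ATRA (all-trans retinoic acid). Treatment lasted 48 hours, single and combined. The other 8 arrays, without entinostat, were Doxorubicin and ATRA and Doxorubicin against DMSO (the solvent) and ATRA, with 2 arrays each. Total RNA was labelled with biotin and hybridised to Illumina bead arrays. The labels do not say whether the 2 arrays of a group came from separate cultures, and every p-value below reflects array-to-array spread that may be purely technical.

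Doxorubicin is an anthracycline that intercalates into DNA and traps topoisomerase II on cut DNA, which gives double-strand breaks and evicts histones. Cells answer such breaks with checkpoint signalling, growth arrest genes such as CDKN1A, and loss of short-lived transcripts when elongation is blocked. Entinostat is a class I histone deacetylase inhibitor that raises histone acetylation and by itself induces CDKN1A in many lines. ATRA is the ligand of the retinoic acid receptors. The study's stated purpose was to derive a signature for each treatment and to integrate them.

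The deposited table gave a background-subtracted intensity and a detection p-value for 34691 gene names. Expression was tested for 17243 genes, and on the 8 arrays 11999 to 12748 gene names had a detection p below 0.05. Replicate arrays of a group correlated at 0.985 to 0.989 (Pearson's r across tested genes). The first principal component of the 8 arrays held 70.1% of the variance, with arrays at 27.7 to 34.9 with doxorubicin and at -34.7 to -24.2 without it. The second held 10.5% and separated the replicate numbers. Markers of the line fitted its name: VIM read 11817 to 13287 intensity units with doxorubicin and 14976 to 18802 without it, and ESR1 and PGR were detected on none of the 8 arrays. EPCAM, listed as a low marker, was detected on all 8, at 225 to 270 units with doxorubicin and 131 to 256 units without it. Of 16 markers of blood, endothelial, fibroblast and liver cells, PTPRC, CD3E, HBA1, LUM and DCN were detected on no array. The summed signal of the 16 was 1477 to 1849 units with doxorubicin and 1192 to 1412 units without it. CD14 and CD68 held most of that signal. VWF and CD14 were called higher and PECAM1 lower, and the part of other cells in the results was not tested.

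Doxorubicin changed a large share of the transcriptome of entinostat-treated cells. Of 17243 genes, 6511 (37.8%) passed an adjusted p below 0.05 (limma with ATRA and replicate number as blocks, Benjamini-Hochberg). Of these, 3117 (18.1% of those tested) were higher with doxorubicin and 3394 (19.7%) were lower. Changes were mostly modest, with a median log2 change of 0.55 among the genes that rose and -0.53 among those that fell. The tail was longer upwards: 494 of the called genes rose more than 2-fold and 407 fell more than 2-fold, while 76 rose and 15 fell more than 4-fold. Each array held the RNA of a whole culture on a scale set equal between arrays, so fewer cells of a kind and less RNA per cell cannot be told apart.

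In what follows, levels are normalized log2 intensities. Values of single arrays are given in the order entinostat 1, entinostat 2, entinostat with ATRA 1, entinostat with ATRA 2, first with doxorubicin and then without it. A change is the fitted log2 difference, with doxorubicin minus without, with its standard error. Means carry the SD over 4 arrays. A gene counted as not above background in a group when all its 4 arrays had a detection p of at least 0.05 and an intensity under 22.4 units, which is 3 SD of the noise. Its fold is then a bound against the lowest detected level, and holds for the main background setting only. List counts cover the members that passed the filter on low values, given as the number tested, and the share over all tested genes (18.1% higher, 19.7% lower) stands for the background.

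The largest fitted rise was that of FOSB, a subunit of the AP-1 transcription factor. FOSB read 10.59, 11.79, 11.48 and 11.45 with doxorubicin, against 6.66, 6.54, 7.37 and 6.68 without it. The lowest doxorubicin array stood far above the highest array without the drug, and the change was 4.51 ± 0.22 (22.8-fold, adjusted p = 4.61e-08). ZCCHC12, a zinc-finger gene known as a transcriptional coactivator in the brain, read 11.62, 10.07, 11.30 and 9.27 with doxorubicin, against 6.33, 5.95, 6.29 and 5.92 without it. It was not above background on any array without doxorubicin, so its rise is a bound of at least 19.9-fold (adjusted p = 1.04e-07) and its rank against FOSB is not known. Both replicate 1 arrays of ZCCHC12 were higher than both replicate 2 arrays with doxorubicin.

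VASN, a membrane protein that binds TGF-beta, read 10.91, 10.89, 11.13 and 10.43 with doxorubicin, against 7.0, 6.61, 6.92 and 6.62 without it. Its groups were separated by more than 3 log2 units on every pair of arrays, with a change of 4.05 ± 0.11 (adjusted p = 1.87e-09). CTSL2, the lysosomal protease now called cathepsin V, read 11.88, 11.07, 11.34 and 10.67 with doxorubicin, against 7.84, 7.04, 7.95 and 6.92 without it, a change of 3.81 ± 0.11 (adjusted p = 3.01e-09). ULBP2, a stress ligand that natural killer cells recognise through NKG2D, read 11.02, 10.81, 10.99 and 10.60 with doxorubicin, against 7.87, 7.69, 8.15 and 7.33 without it. The arrays of each ULBP2 group lay close together, and the change was 3.10 ± 0.11 (8.55-fold, adjusted p = 9.94e-09).

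ID2, which binds and disables basic helix-loop-helix factors, averaged 10.61 ± 0.34 with doxorubicin and 7.40 ± 0.43 without it (SD, n = 4 each), and its change was 3.21 ± 0.13. HAND1, itself a basic helix-loop-helix factor of heart development, changed by 3.24 ± 0.17, HSPB8, a small heat shock protein, by 3.22 ± 0.14, and SLC16A10, a transporter of aromatic amino acids, by 3.21 ± 0.11. INSM2, a zinc-finger repressor of the neuroendocrine lineage, and RND1, a small GTPase, were not above background on any array without doxorubicin. Their rises were at least 10.5-fold for INSM2 and at least 7.24-fold for RND1. CXCL10, an interferon-induced chemokine, read 8.75, 10.05, 8.83 and 9.52 with doxorubicin, against 6.14, 6.08, 6.40 and 6.38 without it (change 3.04 ± 0.20). For these 12 genes the groups did not overlap, as for 15.4% of all tested genes in the upward direction. The 12 were picked for large rises on these same arrays, so this follows largely from the choice and is no further support.

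The largest fitted fall was that of CYR61, a secreted matricellular protein and a textbook target of YAP. CYR61 read 9.98, 8.92, 9.63 and 9.04 with doxorubicin, against 13.07, 12.61, 12.47 and 12.60 without it. The change was -3.29 ± 0.15 (9.8-fold lower, adjusted p = 3.13e-08), and all 4 doxorubicin arrays lay below all 4 others. PHLDA1, a pleckstrin-homology protein induced by ERK signalling, read 7.78, 7.44, 7.88 and 7.74 with doxorubicin, against 10.46, 10.31, 9.93 and 10.05 without it (change -2.48 ± 0.13). DKK1, a secreted inhibitor of Wnt signalling, fell by 2.43 on the log2 scale, and CPA4, a secreted carboxypeptidase first found as induced by deacetylase inhibitors, fell by 2.36.

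CDK6, a kinase of the G1 phase, read 7.19, 7.46, 7.62 and 7.79 with doxorubicin, against 9.75, 10.14, 9.07 and 10.05 without it (change -2.24 ± 0.17, adjusted p = 1.08e-06). EIF4A2, a translation initiation helicase, and FOSL1, another AP-1 subunit, fell by 2.24 and 2.15 on the log2 scale. RPPH1 (the RNA of ribonuclease P), PLAU (urokinase), TGFBR2 (a TGF-beta receptor), HIF1A (the oxygen-regulated transcription factor) and MYEOV each fell by 2.03 to 2.08. HIF1A read 7.07, 6.78, 7.13 and 6.81 with doxorubicin, against 9.59, 8.80, 8.69 and 8.86 without it, with no overlap. In the downward direction 17.9% of all tested genes showed no overlap, and all 12 of the largest falls were among them. That too follows largely from their choice by size of fall.

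**Figure D1:**
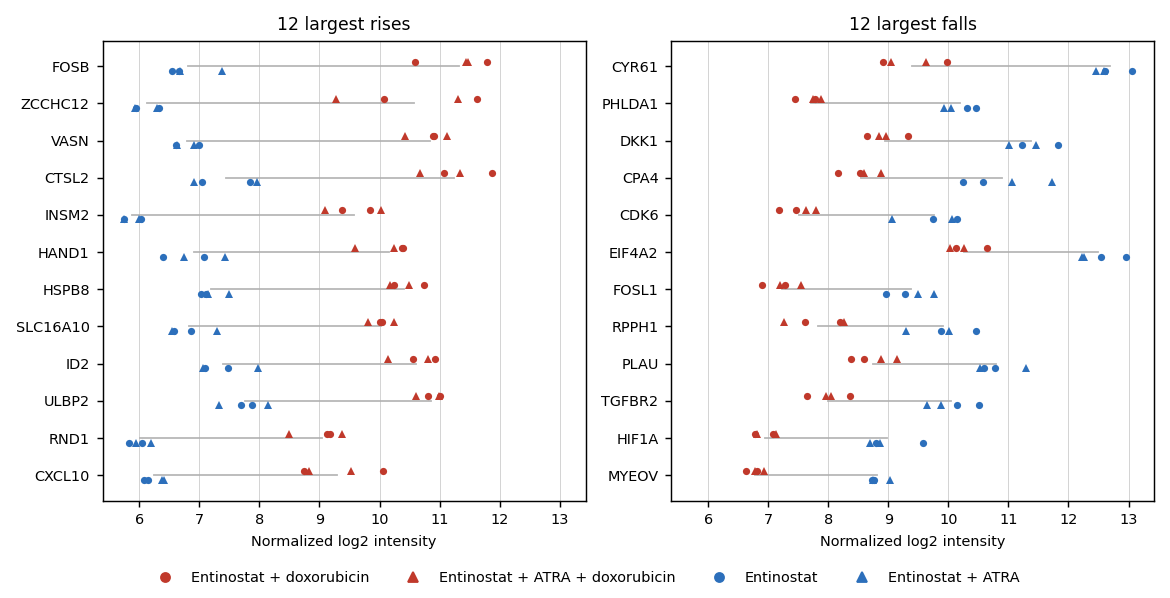
Normalized log2 intensity (horizontal axis) of the 12 genes with the largest fitted rise (left) and the 12 with the largest fitted fall (right), with 1 point per array, doxorubicin arrays in red and the others in blue, triangles for arrays with ATRA. The grey line joins the 2 group means. FOSB lies between 10.59 and 11.79 with doxorubicin and between 6.54 and 7.37 without it, and CYR61 between 8.92 and 9.98 with it and between 12.47 and 13.07 without it.

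Genes induced by DNA damage or tied to growth arrest were mostly higher. Of 32 tested, 22 rose and 2 fell, with a median log2 change of 0.42, against -0.004 over all tested genes. GADD45G, a stress sensor that slows the cell cycle, read 9.27, 9.16, 9.18 and 8.54 with doxorubicin, against 6.59, 6.28, 6.34 and 5.99 without it, a change of 2.74 ± 0.10 (6.66-fold, adjusted p = 9.94e-09). ATF3, a stress-induced repressor, rose by 1.61 ± 0.13, and BTG2, an antiproliferative gene, by 1.52 ± 0.15. PLK2, a polo-like kinase induced by stress, and PMAIP1, the proapoptotic protein NOXA, fell by 0.96 and 0.50. ATF3 averaged 8.75 with doxorubicin and 7.14 without it although its detection p was above 0.05 on all 8 arrays, and it entered the test through its mean signal.

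CDKN1A, a cyclin-dependent kinase inhibitor and a standard marker of damage-induced arrest, moved little. It read 11.77, 11.68, 11.53 and 11.66 with doxorubicin, against 11.40, 11.18, 11.66 and 10.80 without it. The arrays overlapped, since Entinostat and ATRA replicate 1 without doxorubicin lay above Entinostat and ATRA and Doxorubicin replicate 1. Its detection p was below 0.05 on 1 of 4 arrays in each group despite this brightness. The change was 0.40 ± 0.14 (1.32-fold, adjusted p = 0.0353). This call was lost in 8 of 18 other settings (adjusted p 0.00256 to 0.155 over the 18): without the replicate block, with 2 other background settings and in 5 of 8 leave-outs. Within replicate 1 the change was 0.11 and within replicate 2 it was 0.68.

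Mitotic genes split. Of 42 tested genes of G2/M and mitosis, 19 fell and 7 rose, with a median of -0.33. The falls included CCNA2, the S and G2 cyclin, which read 9.32, 8.85, 9.04 and 9.13 with doxorubicin, against 10.38, 10.40, 9.78 and 10.41 without it (change -1.16 ± 0.15, adjusted p = 5.96e-05). ECT2, the exchange factor that drives cytokinesis, and CENPA, the centromeric histone variant, changed by -1.08 ± 0.17 and -1.04 ± 0.19. With background estimated from the detection p-values, 7 of the 42 fell, and the call of CENPA was lost.

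The rises were led by CDC25C, the phosphatase that activates CDK1. CDC25C read 8.40, 8.66, 9.03 and 8.56 with doxorubicin, against 7.73, 7.30, 6.98 and 7.23 without it (change 1.35 ± 0.16, adjusted p = 4.03e-05). NUSAP1, a spindle protein, rose by 0.92 ± 0.10. AURKA, the kinase of the spindle poles, read 10.66, 10.66, 10.80 and 10.54 with doxorubicin, against 10.45, 9.92, 8.93 and 9.89 without it (change 0.87 ± 0.22, adjusted p = 0.0067). Without doxorubicin its lowest array was Entinostat and ATRA replicate 1, and its call was lost with background from the detection p-values. CCNB1, the mitotic cyclin B1, read 8.72, 8.54, 8.41 and 8.32 with doxorubicin, against 10.01, 9.45, 8.17 and 9.06 without it. The CCNB1 groups overlapped through that same Entinostat and ATRA replicate 1 array, and its change of -0.68 ± 0.22 (adjusted p = 0.0259) lost its call in 7 of 18 other settings, 5 of them leave-outs. MKI67, the proliferation antigen Ki-67, was at 6.61 ± 0.16 with doxorubicin and 6.86 ± 0.21 without it (SD, n = 4 each), with an adjusted p of 0.11. Without that array of Entinostat and ATRA replicate 1 the MKI67 change was -0.39 with an adjusted p of 0.00923, and without Entinostat and ATRA and Doxorubicin replicate 1 it was -0.34 with an adjusted p of 0.0464. In its other 16 settings it was not called, and the adjusted p over all 18 was 0.00923 to 0.326.

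Promoters of mitotic genes carry the cell cycle genes homology region (CHR, letters TTTGAA), which is bound by the MuvB complex that represses these genes in arrested cells. Promoter windows of RefSeq (build GRCh38.p14, 250 bases before to 50 after the start) were found for 18 of the 19 genes that fell and for 5 of the 7 that rose. The motif was sought on both strands. It stood in 13 of the 18 (72.2%) and in 4 of the 5 (80%), against 15.2% of all 35116 promoters. The CCAAT box (letters CCAAT) stood in 12 of the 18 (66.7%) and 4 of the 5 (80%), against 34.6% of all promoters. The motif was thus present in both directions of change. Mitotic genes that were not called were not searched, so these shares do not tie the motif to the change. The windows shown are those of 1 gene that rose (CDC25C) and 3 that fell, with the motif in capitals, which reads TTCAAA where it lies on the other strand.
CDC25C, chr5:138331809-138331854, minus strand: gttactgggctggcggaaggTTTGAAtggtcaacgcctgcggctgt
CENPA, chr2:26786018-26786063, plus strand: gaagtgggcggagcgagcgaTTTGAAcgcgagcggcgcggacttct
ECT2, chr3:172750752-172750845, plus strand: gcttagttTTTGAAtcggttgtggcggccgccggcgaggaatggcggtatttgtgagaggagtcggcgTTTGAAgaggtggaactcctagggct
TOP2A, chr17:40418022-40418110, minus strand: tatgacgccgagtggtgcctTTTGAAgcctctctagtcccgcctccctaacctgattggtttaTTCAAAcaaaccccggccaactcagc

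Genes of DNA replication and G1/S went both ways, with 10 of 46 higher (21.7%) and 13 lower (28.3%), against 18.1% and 19.7% of all tested genes. E2F2, a transcription factor of S phase, rose by 1.27 ± 0.18, and GINS4 and GINS3, subunits of the replicative helicase, rose by 1.24 ± 0.11 and 1.20 ± 0.10. Beside CDK6, PRIM1, the catalytic primase subunit, fell by 1.32, and CCND1, cyclin D1, read 11.08 ± 0.37 with doxorubicin and 12.20 ± 0.30 without it (SD, n = 4 each), a change of -1.13 ± 0.15 (adjusted p = 7.0e-05). Homologous recombination and Fanconi genes were lower more often than higher, at 10 against 1 of 27. NBN, a sensor of double-strand breaks, fell by 1.03, BLM, a helicase, by 0.74, and RBBP8, which starts end resection, by 0.69. The 1 rise, FANCE at 0.28 ± 0.09, lost its call in 6 of 8 leave-outs.

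The genes of topoisomerase II, the direct target of the drug, moved less than CDK6 or CCND1. TOP2A, the proliferation-linked topoisomerase II, read 10.71, 10.30, 10.32 and 10.24 with doxorubicin, against 11.22, 10.99, 10.79 and 10.83 without it. These groups did not overlap, and the change was -0.56 ± 0.10 (adjusted p = 0.000531). TOP2B, the isoform of resting cells, changed by -0.21 ± 0.10 and was not called (adjusted p = 0.129), though it was called without Entinostat and ATRA replicate 1 (-0.30, adjusted p = 0.0486) and in none of its other 17 settings (highest adjusted p 0.4). H2AFX, which encodes the histone phosphorylated at breaks, averaged 7.31 ± 0.20 with doxorubicin and 8.39 ± 0.17 without it (SD, n = 4 each), a change of -1.09 ± 0.10 (adjusted p = 3.98e-06). Among 21 genes of topoisomerases and anthracycline handling, 6 were higher and 6 lower. CBR3, a carbonyl reductase, and POR, the cytochrome P450 reductase, both enzymes that act on anthracyclines, rose by 1.44 ± 0.11 and 1.42 ± 0.11, and GSTP1, a glutathione transferase, by 0.89 ± 0.12.

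Of 45 replication-dependent histone genes in the files, 30 passed the filter on low values. Of these 30, whose transcripts mostly lack a poly(A) tail, 13 rose and none fell. Many histone genes are near-identical copies, so single members are uncertain. HIST2H2BE changed by 1.35 ± 0.16, with 1.78 within replicate 1 and 0.92 within replicate 2. HIST1H2AM changed by 1.13 ± 0.18. The count of histone rises was 5 without the replicate block and 1 with background from the detection p-values.

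Lysosomal genes were the list with the highest share of rises. Of 33 in the files 29 were tested, of which 25 (86.2%) rose and none fell, with a median log2 change of 0.61. Besides CTSL2, NEU1, the lysosomal sialidase, read 11.25, 10.83, 11.20 and 10.74 with doxorubicin, against 8.04, 7.99, 8.69 and 7.82 without it. No NEU1 array without doxorubicin came within 2 log2 units of the doxorubicin arrays (change 2.87 ± 0.13, 7.32-fold, adjusted p = 2.44e-08). MCOLN1, the calcium channel of the lysosome membrane, read 8.42, 8.68, 8.72 and 8.61 with doxorubicin, against 7.20, 6.88, 7.24 and 7.06 without it (change 1.51 ± 0.10).

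Lysosomal promoters are known for an E-box element (letters TCACGTGA, the same on both strands) read by TFEB and its relatives. This motif was chosen after the values were seen. RefSeq windows were found for 18 of the 25 risen genes, and 5 of them (27.8%) held it, against 0.98% of all promoters. Lysosomal genes that were not called were not searched, so this share does not tie the motif to the rise. TFEB itself did not pass the filter on low values. The 5 windows, on GRCh38.p14 with the motif in capitals, were the following.
MCOLN1, chr19:7522562-7522636, plus strand: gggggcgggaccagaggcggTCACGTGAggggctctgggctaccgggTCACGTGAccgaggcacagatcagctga
CTSA, chr20:45891289-45891336, plus strand: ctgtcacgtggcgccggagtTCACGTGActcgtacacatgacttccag
LAMP1, chr13:113297190-113297264, plus strand: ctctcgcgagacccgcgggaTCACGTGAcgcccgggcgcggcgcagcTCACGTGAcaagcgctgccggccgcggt
GAA, chr17:80101484-80101576, plus strand: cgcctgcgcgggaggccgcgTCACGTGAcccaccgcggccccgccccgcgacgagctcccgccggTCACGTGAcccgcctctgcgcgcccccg
ATP6V0D1, chr16:67481190-67481237, minus strand: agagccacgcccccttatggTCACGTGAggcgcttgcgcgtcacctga
These genes changed by 1.51 (MCOLN1), 0.76 (CTSA, protective protein), 0.50 (LAMP1, a membrane glycoprotein), 0.32 (GAA, acid glucosidase) and 0.79 (ATP6V0D1, a proton pump subunit). The genes other than MCOLN1 were named after their values were seen.

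Interferon-response genes rose in part. Of 35 tested, 17 rose and 2 fell (4 without Entinostat and Doxorubicin replicate 1, and 1 in 4 other leave-outs), with a median of 0.31. Beside CXCL10, IRF7, the master regulator of type I interferon, read 9.85, 10.44, 10.09 and 10.09 with doxorubicin, against 7.08, 7.0, 7.25 and 7.30 without it, a change of 2.96 ± 0.12 (7.78-fold, adjusted p = 1.78e-08). OASL, an antiviral sensor, rose by 1.87 ± 0.13. IFI44 fell by 0.86, and OAS1 changed by -0.27 ± 0.09 with a call that was lost in 5 of 8 leave-outs. IFIT1, IFIT2 and RSAD2, classical targets of the same pathway that were named after their values were seen, changed by 0.08, 0.11 and -0.04 and were not called.

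The interferon-stimulated response element was sought on both strands as a pair of GAAA runs with any 2 bases between them. It stood in 10 of 13 promoters found for the 17 risen genes (76.9%), against 3.57% of all promoters. Members of the list that did not rise were not searched, so this share does not tie the element to the rise. The element is shown for CXCL10 and for ISG15 and IFI6, which changed by 1.30 and 1.34 and were chosen for their matches. In ISG15 a pair of matches overlap, and IFI6 holds 3 matches in its whole promoter, of which 2 are shown.
CXCL10, chr4:76023689-76023738, minus strand: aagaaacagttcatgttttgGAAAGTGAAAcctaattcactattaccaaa
ISG15, chr1:1013364-1013419, plus strand: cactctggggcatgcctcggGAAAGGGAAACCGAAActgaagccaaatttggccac
IFI6, chr1:27672278-27672368, minus strand: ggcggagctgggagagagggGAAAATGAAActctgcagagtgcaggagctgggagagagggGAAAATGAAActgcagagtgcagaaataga

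Antigen presentation genes rose without a fall, at 12 of 21 and a median of 0.44. HLA-B, a class I heavy chain, read 10.63, 10.70, 10.49 and 11.05 with doxorubicin, against 8.20, 8.59, 8.63 and 8.87 without it (change 2.15 ± 0.10, adjusted p = 4.91e-08). HLA genes are near-identical in parts, so values may be shared between members. TAP1, which carries peptides into the endoplasmic reticulum, rose by 1.74 ± 0.17 and HLA-F by 1.34 ± 0.10. Inflammatory and NF-kB genes also moved, with 13 of 28 higher (8 with background from the detection p-values) and 4 lower. SOD2, the mitochondrial superoxide dismutase, rose by 1.64 ± 0.11, ICAM1, an adhesion molecule, by 1.36 ± 0.14 and CCL2, a monocyte chemokine, by 1.04 ± 0.11. BIRC3, an inhibitor of apoptosis, IL11 and CSF2, both cytokines, fell by 1.33, 1.26 and 1.01.

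Immediate early genes were almost all called, with 12 of 24 higher and 10 lower (5 lower with background from the detection p-values). FOS read 8.75 ± 0.46 with doxorubicin and 6.72 ± 0.51 without it (SD, n = 4 each), a change of 2.03 ± 0.12, and EGR2, a zinc-finger factor, rose by 1.91 ± 0.10. FOSB and FOS thus rose while FOSL1, of the same family, fell, and IER3, an early response gene, fell by 1.59. The AP-1 motif (letters TGANTCA, both strands) stood in 1 of 11 promoters found for the 12 largest rises (9.09%, ULBP2), against 7.71% of all promoters.

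Genes listed for feedback of the ERK pathway mostly fell, at 13 of 19 with 3 rises and a median of -0.63. The list is broad and also holds transcription factors and a receptor kinase, and FOSL1 is counted among the immediate early genes too. PHLDA1, FOSL1 and MYEOV were the largest falls. EPHA4, a receptor kinase, EGR1, a zinc-finger factor, and ETV5, an ETS factor, rose by 1.79 ± 0.16, 1.75 ± 0.14 and 0.51 ± 0.10. Among targets of YAP and TEAD, 10 of 24 fell and 4 rose. After CYR61 these were CTGF, its matricellular relative, which averaged 11.43 ± 0.30 with doxorubicin and 12.90 ± 0.25 without it (SD, n = 4 each), and F3, tissue factor, which fell by 1.00. FSTL1 rose by 1.04 ± 0.10, NUAK2 by 0.90 ± 0.09 and TEAD3 by 0.73 ± 0.10. Of 14 genes listed as helix-loop-helix repressors, 9 rose and 3 fell. HAND1, a factor of heart development rather than an ID or HES repressor, is counted among the 9. HES4, a Notch target, rose by 1.54 ± 0.12 while ID1, ID3 and BHLHB2 fell by 1.45, 0.65 and 0.44. Within its family ID2 therefore moved opposite to ID1 and ID3. The calls of ID3 and BHLHB2 were lost with background from the detection p-values, and that of BHLHB2 also in the fit of all 16 arrays.

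RNA-processing genes were lower. Of 32 SR proteins and hnRNPs, which bind exons and steer splicing, 22 fell and 1 rose, with a median of -0.55. SFRS10 (now TRA2B) read 8.89, 8.89, 8.71 and 8.67 with doxorubicin, against 10.55, 10.93, 10.04 and 10.68 without it (change -1.76 ± 0.12, 3.39-fold lower, adjusted p = 5.28e-07). HNRNPA0 and SFRS6 both fell by 1.66, and SFRS5 rose by 0.50 ± 0.09. Translation factors followed, with 18 of 42 lower and 2 higher (4 higher without Entinostat and ATRA and Doxorubicin replicate 2, in the fit of all 16 arrays or with the authors' log2 table). After EIF4A2 the largest falls were EIF3A at -1.36 ± 0.11 and EIF4B at -1.35 ± 0.12, while EIF4A3, an exon junction helicase, rose by 0.90 ± 0.10. Proteasome subunits had 11 of 30 lower and 5 higher (2 higher at an offset of 16 or without Entinostat replicate 2), led by PSMD7 at -1.31 ± 0.10. Of 78 cytosolic ribosomal proteins, 7 were higher (8.97%) and 4 lower (5.13%, and 2 members without Entinostat and ATRA replicate 2), against 18.1% and 19.7% of all tested genes, and their changes ran from -0.46 to 0.58. Of 64 oxidative phosphorylation genes 17 rose and 7 fell, with NDUFC1 highest at 0.84 ± 0.09 and NDUFV2 lowest at -0.65 ± 0.09. Of 30 small nuclear and nucleolar RNAs, 8 rose (4 with background from the detection p-values) and 3 fell. SNORD13 changed by 1.87 ± 0.11 and RPPH1 by -2.08 ± 0.21.

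**Figure D2:**
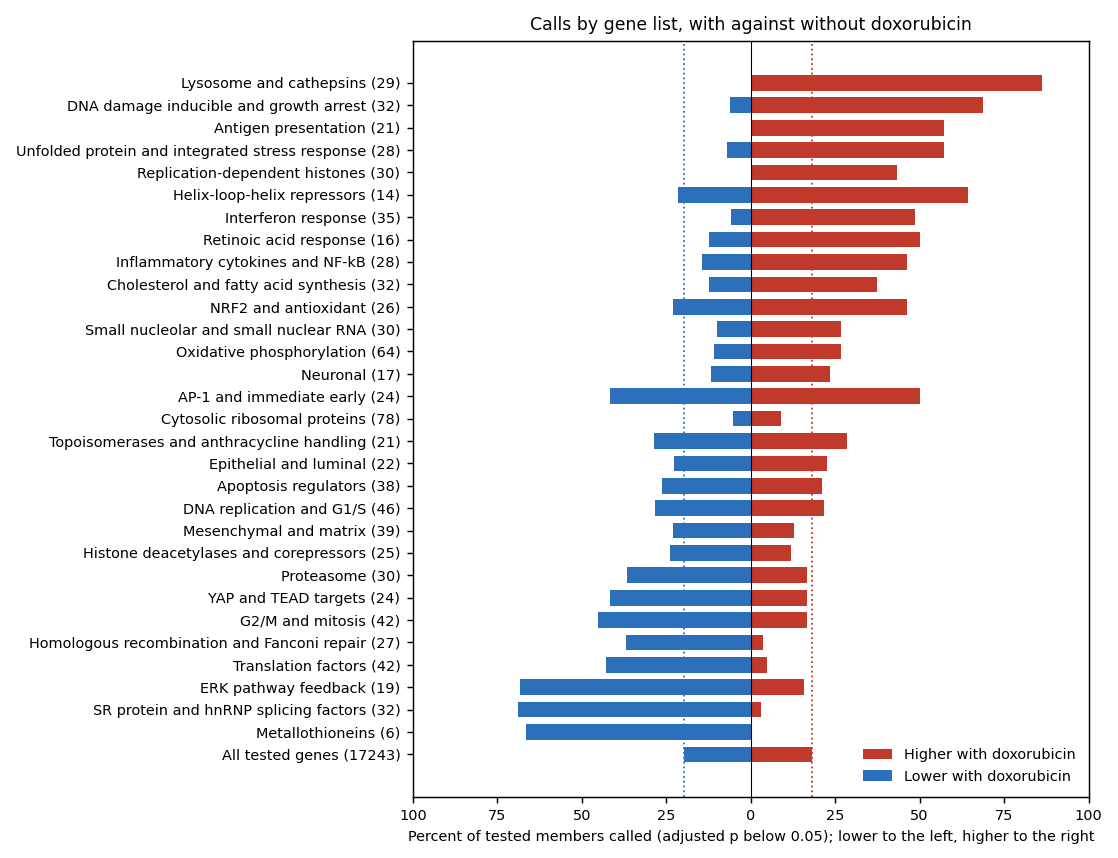
Percent of each list's tested members called higher (red, to the right) and lower (blue, to the left) with doxorubicin, with the number tested in brackets. Dotted lines mark the shares over all tested genes, 18.1% higher and 19.7% lower. Lysosomal genes reach 86.2% higher and SR proteins and hnRNPs 68.8% lower.

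Sterol and stress genes rose more often than they fell. Of 32 genes of cholesterol and fatty acid synthesis 12 rose and 4 fell. The count of rises was 6 with background from the detection p-values and 8 at the lowest leave-out, without Entinostat replicate 2. HMGCS1, an early enzyme of cholesterol synthesis, read 10.56, 10.01, 10.09 and 9.86 with doxorubicin, against 8.31, 7.95, 7.95 and 8.01 without it (change 2.08 ± 0.11, adjusted p = 7.9e-08). TM7SF2 and NSDHL, later enzymes, rose by 1.59 ± 0.14 and 1.04 ± 0.09.

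Of 28 genes of the unfolded protein and integrated stress responses, 16 rose and 2 fell. ERN1, the stress sensor IRE1, averaged 9.71 ± 0.14 with doxorubicin and 7.29 ± 0.04 without it (SD, n = 4 each), a change of 2.43 ± 0.09. Its detection p was below 0.05 on all 4 arrays with doxorubicin and on none without it. CRELD2, an endoplasmic reticulum chaperone, and ATF5, a factor of the stress response, rose by 1.54 ± 0.09 and 1.47 ± 0.15, whereas ATF4, the central factor of that response, fell by 0.96 and HERPUD1 by 0.74. The call of HERPUD1 was lost with background from the detection p-values. Of 26 NRF2 and antioxidant genes 12 rose and 6 fell. GPX1 rose by 0.86 ± 0.09 and PGD by 0.69 ± 0.10, while TXNRD1, NFE2L2 (NRF2 itself) and GCLM fell by 0.94, 0.69 and 0.47. Metallothioneins, which bind zinc and share long stretches of sequence, had 4 of 6 lower and none higher. MT1E changed by -1.09 ± 0.13 and MT1A by -0.57 ± 0.11.

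Regulators of cell death and cell identity were called in both directions, mostly at shares near those of all tested genes (18.1% higher, 19.7% lower). The shares higher and lower were 21.1% and 26.3% for apoptosis genes and 22.7% each for epithelial genes. For mesenchymal and matrix genes they were 12.8% and 23.1%, for neuronal genes 23.5% and 11.8%, and for deacetylase and corepressor genes 12% and 24%. Of 38 apoptosis genes 8 rose and 10 fell: TNFRSF10D, a decoy receptor of TRAIL, rose by 2.05 ± 0.14 and TNFRSF10B, a death receptor, by 0.66 ± 0.09, while BCL2L1 (BCL-XL) fell by 1.14 and BCL2L2 by 0.88. Epithelial genes had 5 of 22 in each direction (3 rises without the replicate block or without Entinostat replicate 1), led by CLDN1, a tight junction protein, at 1.34 ± 0.12 and KRT80, a keratin, at -1.80 ± 0.11. Mesenchymal and matrix genes had 5 of 39 higher (2 without the replicate block, 3 without Entinostat replicate 2 or with background from the detection p-values) and 9 lower. ACTA2, smooth muscle actin, averaged 9.76 ± 0.25 with doxorubicin and 7.50 ± 0.52 without it (SD, n = 4 each), with a change of 1.64 within replicate 1 and 2.86 within replicate 2. THBS1, thrombospondin, and CDH11, a cadherin, fell by 1.98 and 1.72. Of 16 retinoic acid response genes 8 rose (50%) and 2 fell (12.5%), against 18.1% and 19.7% of all tested genes, with CRABP2 at 1.57 ± 0.11 and RXRA, the partner receptor, at -1.91 ± 0.18. RXRA read 7.24, 6.62, 7.06 and 6.78 with doxorubicin, against 9.19, 8.94, 8.26 and 8.97 without it. Neuronal genes had 4 of 17 higher and 2 lower (1 without the replicate block and in 6 of 8 leave-outs), with TUBB3 at 1.73 ± 0.13. Histone deacetylase and corepressor genes had 3 of 25 higher and 6 lower, with SAP18 at 1.13 ± 0.08 and MTA3 at -1.26 ± 0.09.

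The effect was also measured beside ATRA and apart from it. Entinostat and ATRA and Doxorubicin against Entinostat and ATRA gave 4023 called genes (23.3%), and Entinostat and Doxorubicin against Entinostat gave 4629 (26.8%). These comparisons share no array, though they share 1 estimate of the spread. Called in both were 3268 genes, which is 81.2% of the 4023 and 70.6% of the 4629, and 3266 of them moved in the same direction. The changes correlated at r = 0.898 across 17243 genes, a description only, as genes are not independent replicates. These counts and shares are those of 1 setting: without Entinostat and ATRA and Doxorubicin replicate 1 the 4023 became 2073, without Entinostat and ATRA replicate 2 it became 2402 and without Entinostat and ATRA and Doxorubicin replicate 2 it became 2680. The 4629 became 2682 without Entinostat replicate 1 and 2828 without Entinostat and Doxorubicin replicate 2. With background from the detection p-values the counts were 1457 and 2187, and the overlap was not computed in these settings. No gene passed the test of the difference between both changes (limma, Benjamini-Hochberg, lowest adjusted p = 0.813), and 658 genes (3.82%) had an unadjusted p below 0.05. Over 16 other settings the count stayed at 0, with 425 to 1301 genes at an unadjusted p below 0.05 and a lowest adjusted p between 0.0601 and 1. The 1301 came without a filter, where 31329 genes were tested rather than 17243. With 2 arrays a group, the count of 0 does not show that ATRA left the effect unaltered. FOSB changed by 4.44 with ATRA and 4.59 without it, CYR61 by -3.20 and -3.39, and HAND1 by 2.83 and 3.65.

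**Figure D3:**
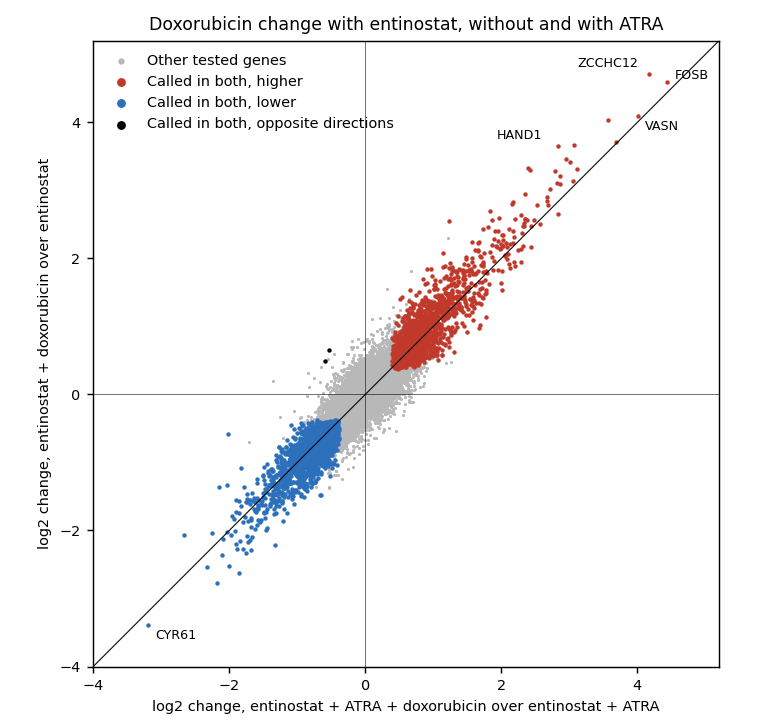
Log2 change with doxorubicin in cells on entinostat, with ATRA on the horizontal axis and without it on the vertical axis, with 1 point per tested gene and the line of equal change. Genes called in both are coloured by direction, and 3266 of the 3268 such genes lie in the same direction on both axes.

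The same drug was also given without entinostat, where 5288 genes (30.7%) were called. Both comparisons called 3985 genes, of which 3941 moved the same way and 44 moved opposite ways. The 3941 are 60.5% of the genes called with entinostat and 74.5% of those called without it. The difference between both changes was itself tested on all 16 arrays and passed for 689 genes (4%), with 389 (2.26%) more positive with entinostat and 300 (1.74%) more negative. That count rested on single arrays: without Doxorubicin replicate 2 it was 1186, and without ATRA and Doxorubicin replicate 1 it was 359. Without the replicate block it was 319.

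By the signs of the fitted changes, called or not, 238 of the 389 had a larger positive change with entinostat, 13 a smaller negative one and 138 changes of opposite sign. Of all 689, 43 were called in both comparisons with opposite signs. The difference passed for ZCCHC12 (adjusted p = 0.000189), PRAMEF9 (adjusted p = 0.00415), INSM2 (adjusted p = 0.0282) and RND1 (adjusted p = 0.00434). These 4 genes were not above background on the entinostat arrays without doxorubicin, so the size of their difference depends on the background setting. SPRYD5, a gene of the tripartite motif family, differed by 2.68 ± 0.39, and PRAMEF4 and FAM90A7, members of multicopy families, by 2.21 ± 0.44 and 2.24 ± 0.30. PRAMEF4, FAM90A7, CXCL10 and GADD45G each had a detection p below 0.05 on 1 of the 4 entinostat arrays without doxorubicin. GADD45G differed by 2.02 ± 0.25 (adjusted p = 0.00046), as it changed by 0.71 without entinostat. CXCL10 differed by 2.07 ± 0.29 and CTSL2 by 1.90 ± 0.36. The call of INSM2's difference was lost in 10 of 16 leave-outs and without the replicate block, and that of PRAMEF4 without the block. With background from the detection p-values the calls of ZCCHC12, SPRYD5, PRAMEF9, PRAMEF4, INSM2, RND1, FAM90A7 and CXCL10 were lost.

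Of the 300, by the same signs, 117 had a larger negative change with entinostat, 42 a smaller positive one and 141 changes of opposite sign. Without entinostat CDKN1A read 11.60, 11.30, 11.34 and 11.45 with doxorubicin (Doxorubicin 1 and 2, ATRA and Doxorubicin 1 and 2), against 9.12, 9.44, 8.73 and 8.89 on the DMSO and ATRA arrays. Its change there was 2.38, and the difference was -1.98 ± 0.21 (adjusted p = 0.000122). In the absence of doxorubicin CDKN1A thus read 10.80 to 11.66 on the entinostat arrays and 8.73 to 9.44 on the DMSO and ATRA arrays, and with doxorubicin all 8 arrays lay between 11.30 and 11.77. SERPINB2, an inhibitor of urokinase, also had a smaller change with entinostat than without it. On entinostat it averaged 11.67 ± 0.12 with doxorubicin and 11.77 ± 0.52 without it (SD, n = 4 each) and was not called (adjusted p = 0.72). Without entinostat SERPINB2 changed by 1.90, a difference of -1.99 ± 0.37 (adjusted p = 0.00743). CPA4 fell by 2.36 with entinostat and by 0.44 without it. TRIB1, a pseudokinase, F3 and CREB3L3, a membrane-bound factor, differed by -1.65 ± 0.18, -1.55 ± 0.19 and -1.51 ± 0.24. With background from the detection p-values the calls of SERPINB2 and CREB3L3 were lost. TRIB1 and F3 fell with entinostat, by 0.76 and 1.00, and rose without it, by 0.89 and 0.55.

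**Figure D4:**
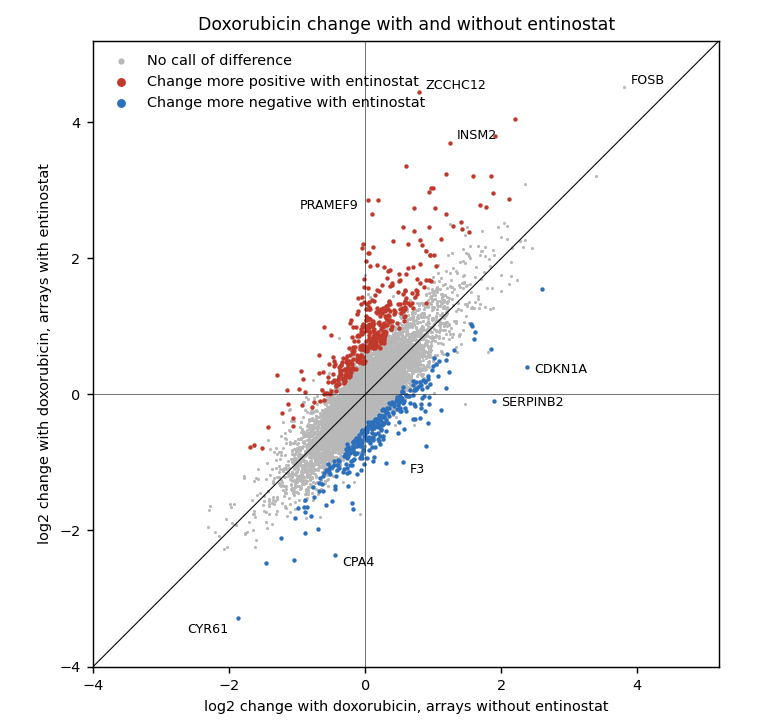
Log2 change with doxorubicin on arrays with entinostat (vertical axis) and without it (horizontal axis), with 1 point per tested gene and the line of equal change. Red and blue mark the 389 and 300 genes whose changes differed in the positive and negative direction. CDKN1A lies at 0.40 with entinostat and 2.38 without it.

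**Figure D5:**
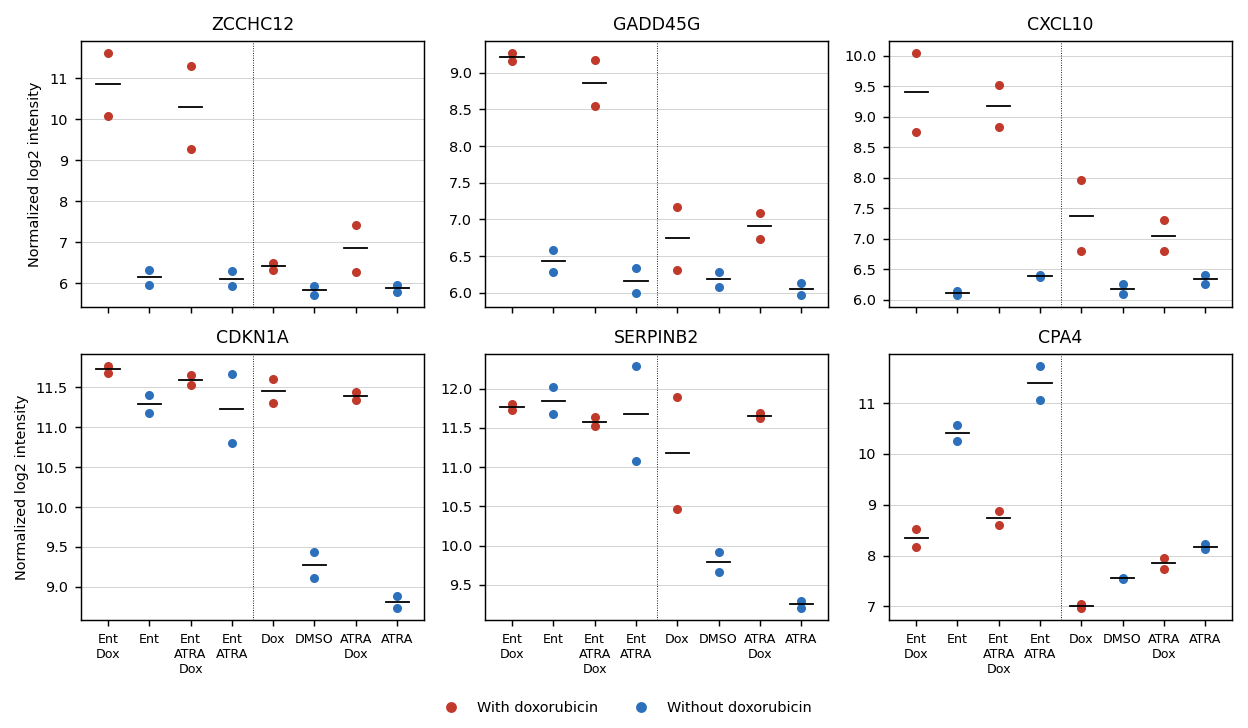
Normalized log2 intensity of 6 genes on all 16 arrays, with 1 point per array, a bar at the mean of each group and a dotted line between arrays with entinostat (left) and without it (right). Each doxorubicin group (red) stands left of the group without the drug (blue). CDKN1A lies at 11.53 to 11.77 with doxorubicin and 10.80 to 11.66 without it on entinostat, and GADD45G at 8.54 to 9.27 with doxorubicin and 5.99 to 6.59 without it on entinostat.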

How the data were processed

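The study measured total RNA of MDA-MB-231 cells on 16 Illumina arrays, in 8 treatment groups of 2 taken from the treatment labels. Per the file headers, the authors deposited an intensity (Signal) and a detection p-value for each of 34691 gene names. The intensity was already background-subtracted and 27.5% to 28.0% of values were negative. The sources used here do not say how probes were summed per gene. A second deposited table holds the authors' log2 values, and limma is named in the submitters' processing notes. Here the intensity was passed through normexp with an offset of 50, then quantile-normalized before taking log2 (R 4.3.3, limma 3.58.1). Genes were tested when the detection p was below 0.05 on at least 2 of 16 arrays (17126) or the mean intensity exceeded 100 (117 more). The 92 spike-ins and 3270 unnamed clusters were left out. Of the tested names, 11002 are current symbols, 2061 an older symbol of 1 gene and 4180 matched none.

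lmFit and eBayes were run on the 8 entinostat arrays with ATRA and replicate number as blocks, as the comparison was defined. A gene was called where its adjusted p (Benjamini-Hochberg) was below 0.05. The comparisons within ATRA status used the 4 group means of these arrays, and the difference with entinostat used the 8 group means of all 16. Replicate numbers come from the labels. Their deviations correlated at 0.17 to 0.42 over the 6 pairs of entinostat groups, and at 0.019 to 0.42 over the 28 pairs of all groups. The test was checked on simulated data. The number of arrays limits the precision.

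The comparison and all gene lists were chosen with earlier results of these data known. Genes were named by rule: the 12 largest called rises and falls that kept their sign in all 4 matched pairs and carry no provisional name, up to 3 called members of each list in each direction, 9 fixed genes, and the 6 largest differences with entinostat in each direction. A few genes that this rule names are not reported here. Promoter sequences are those of RefSeq. Alternatives were no replicate block, an offset of 16, the authors' log2 table, background from the detection p-values (limma's nec, offset 16), no quantile step, other filters, an intensity trend, all 16 arrays, no ATRA term, and leaving out each array.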

Additional observations from a re-analysis of the deposited data

Results flagged for a closer look

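The change with doxorubicin differed between cells with and without entinostat for 689 of 17243 genes by the test of the difference itself (limma, Benjamini-Hochberg, 16 arrays). The values that follow are the log2 change with entinostat minus the log2 change without it. More positive with entinostat were ZCCHC12 at 3.66, SPRYD5 at 2.68, PRAMEF9 at 2.55, INSM2 at 2.46, FAM90A7 at 2.24 and PRAMEF4 at 2.21. Of the largest rises, CXCL10 differed by 2.07, HAND1 by 2.06, RND1 by 2.04, CTSL2 by 1.90, VASN by 1.86, HSPB8 by 1.63 and SLC16A10 by 1.36. ZCCHC12, PRAMEF9, INSM2 and RND1 were not above background on the entinostat arrays without doxorubicin, so their differences depend on the background setting: with background from the detection p-values they were 2.81, 1.02, 1.34 and 0.85, and none was called. More negative with entinostat were SERPINB2 at -1.99, CDKN1A at -1.98, CPA4 at -1.92, TRIB1 at -1.65, F3 at -1.55 and CREB3L3 at -1.51. Of the largest falls, CYR61 differed by -1.42, DKK1 by -1.39, TGFBR2 by -1.16 and PHLDA1 by -1.01. The call for PHLDA1 was lost without the replicate block and in 7 of 16 leave-outs, and that for SLC16A10 in 9 of 16 leave-outs. With background from the detection p-values 13 of the 23 calls were lost. At an offset of 16 the calls for CTSL2, HAND1, INSM2 and SLC16A10 were lost.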

How the results depend on the processing

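The count of 6511 genes was 5074 to 6576 over 18 other settings (5796 without the replicate block), and 75.6% to 99.2% of the 6511 were called in each. Leaving out 1 array gave 5535 to 6139. The counts within ATRA status moved more: with background from the detection p-values they were 1457 with ATRA (657 higher, 800 lower) and 2187 without it (933 higher, 1254 lower). Leaving out 1 array gave 2073 to 4085 with ATRA (1067 to 1972 higher, 1006 to 2113 lower) and 2682 to 4636 without it (1304 to 2240 higher, 1378 to 2396 lower). The count of differences with entinostat was 319 without the replicate block (194 higher, 125 lower), 430 at an offset of 16 (161 lower), and 359 to 1186 with 1 array left out (220 to 601 higher, 139 to 585 lower). Of 184 genes followed in the main comparison, 157 kept their side of the threshold in every setting, and of 23 differences 7 did. SERPINB2, not called at -0.09, lay between -0.30 and 0.12 with 1 array left out, and turned positive without Entinostat and ATRA replicate 1 (0.12) and without Entinostat and ATRA and Doxorubicin replicate 1 (0.03). The cause of these shifts was not tested. Signal over background limits the genes that were dim without doxorubicin, whose folds are bounds in the main background setting only.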

Other observations

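Multicopy gene families that the gene lists did not hold were looked at after their values were seen. Of 22 PRAMEF names (a cluster of germline and early embryo genes) 11 were tested, and of 19 FAM90A names 13. Of these, 8 and 12 were detected on at least 2 doxorubicin arrays with entinostat, and 3 and 5 on any entinostat array without doxorubicin. Most members thus entered the test through the arrays where they are high, which fixes the direction of a count of calls, so none is given. Copies of both families are near-identical, so these are not independent genes. PRAMEF9 read 9.74, 8.07, 9.82 and 7.60 with doxorubicin, against 6.31, 5.93, 6.16 and 6.21 without it, and FAM90A7 read 9.04, 7.78, 8.68 and 7.63 with doxorubicin, against 5.89, 5.81, 6.48 and 6.11 without it. In both genes each replicate 1 array with doxorubicin was higher than each replicate 2 array. PRAMEF9 was not above background without doxorubicin on entinostat, so its rise is a bound of at least 5.98-fold in the main background setting. With background from the detection p-values its log2 change was 1.02 and its call was lost (limma, adjusted p = 0.0789). In that setting PRAMEF4 changed by 0.68 and also lost its call (adjusted p = 0.0902). TRIM48, of the same tripartite motif group as SPRYD5, changed by 1.46 ± 0.21.

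Other single genes stood out. HCP5, a long RNA of the HLA region, changed by 2.46 ± 0.10 with entinostat and by 0.56 without it. RGS16, a G protein regulator, was not above background without doxorubicin on entinostat, and its rise there was at least 4.32-fold. DDIT4L, an mTOR inhibitor, changed by 2.09 ± 0.11 with entinostat and by 0.05 without it, a difference of 2.03 ± 0.20 (adjusted p = 7.08e-05). H1F0, the linker histone of non-dividing cells that deacetylase inhibitors induce, fell by 1.84 with entinostat and by 2.05 without it (difference 0.21 ± 0.39, adjusted p = 0.842). With entinostat its change was -1.27 within replicate 1 and -2.40 within replicate 2. Proton pump subunits of the lysosome (V-ATPase) were also looked at after their values were seen. With entinostat 12 of 21 tested were called higher and 1 lower, against 18.1% and 19.7% of all tested genes. Without it the counts were the same, against 15% and 15.6%, and most of the called members were shared. ATP6V1B1 and ATP6V1H were called higher only with entinostat. ATP6AP2 and ATP6V0E1 were called only without it, but their changes were close, at 0.31 and 0.20 with entinostat and 0.38 and 0.29 without it. The test of the difference did not pass for these last genes (limma, adjusted p = 0.881 and 0.807). It passed for 2 subunits in the positive direction, ATP6V1B1 and ATP6V1H, and for 1, ATP6V0A1, in the negative.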
